A study of Mus musculus with 4 samples.

Results

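The genes of intestinal iron absorption and storage examined here were Cybrd1, Slc11a2, Slc40a1, Heph, Tfrc, Fth1 and Ftl1, 7 of the 20816 genes into which the exons of the mm9 RefSeq annotation were joined. They are listed by symbol, and no threshold on these data defined them. All 7 were measured, and all 7 had at least 2 start points, that is distinct positions at which a read begins, in each library.

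The study compared small intestine (jejunum by its methods) with colon (distal colon) of C57BL/6 mice aged 9 to 10 weeks by SOLiD sequencing. A first pair of libraries (small intestine and colon, called cDNA fragmented) was made from polyadenylated RNA that was reverse transcribed, amplified and then sheared. A second pair is called rRNA-depleted after its labels. The paper describes a second protocol in which polyadenylated RNA was fragmented and adaptors were ligated directionally. It describes no rRNA depletion, so how the deposited second pair was made is not known from it. Reads of this pair were strand-specific, with 98.4% (small intestine) and 98.3% (colon) on the gene strand. Each tissue has a single library in each protocol. Replicate error within a protocol is therefore unknown, and the study's methods give 6 mice in total. The paper states that both tissues came from the same individuals, and which mouse entered which library is not given in the sources used here.

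Dietary iron is reduced at the brush border of the enterocyte, taken up across the apical membrane, and then either stored in ferritin or exported to the blood. Cells in the mucosa also take up iron from plasma through the transferrin receptor. Several of these mRNAs carry an iron responsive element (IRE), a short hairpin bound by iron regulatory proteins when iron is scarce. A hairpin in the 5' untranslated region (UTR) then blocks translation, and hairpins in the 3' UTR of the transferrin receptor mRNA protect it from decay. In rodents most uptake takes place in the proximal small intestine.

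The IRE sequences are shown because they are the regulatory sites known in several of these mRNAs. The motif, a C followed by 5 bases that pair with the 5 bases after the loop CAGTGN, was searched on the strand of each gene in mm9. It was found in 4 of the 7 genes, against 223 of 20816 genes (1.07%). The 6 bases of the loop are in capitals.
Slc40a1, 5' UTR, chr1:45982311-45982337, minus strand: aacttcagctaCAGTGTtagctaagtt
Fth1, 5' UTR, chr19:10057223-10057249, plus strand: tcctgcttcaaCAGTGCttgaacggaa
Ftl1, 5' UTR, chr7:52715150-52715176, minus strand: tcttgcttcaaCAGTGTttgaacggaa
Tfrc, 3' UTR, chr16:32631306-32631332, plus strand: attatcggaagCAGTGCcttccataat
Tfrc, 3' UTR, chr16:32631685-32631711, plus strand: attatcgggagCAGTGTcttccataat
Tfrc, 3' UTR, chr16:32631750-32631776, plus strand: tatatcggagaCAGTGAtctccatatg
Tfrc, 3' UTR, chr16:32631797-32631823, plus strand: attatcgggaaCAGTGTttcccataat
The hairpins of Fth1 and Ftl1 have the same 5 paired bases on each side of the loop. The letters were not found in the exons of Slc11a2, Heph or Cybrd1, which says only that this form of the motif is not there.

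Uniquely placed reads numbered 22484041 and 24798934 in the cDNA fragmented libraries of small intestine and colon, and 2035386 and 3478387 in the rRNA-depleted ones. Levels are given as RPKM, reads per 1000 exonic bases per 1000000 uniquely placed reads, with exact 95% Poisson intervals that cover counting error only. The tissue labels were set against marker lists. All 7 markers of absorptive enterocytes were called higher in small intestine in both protocols, and all 7 smooth muscle markers had higher levels in colon in both. Pancreatic acinar markers summed to 18.8 and 1072 RPKM in small intestine and colon by cDNA fragmentation. By rRNA depletion the sums were 3240 and 300.4 RPKM, so that pancreatic RNA lay on opposite sides of the tissue comparison in the 2 protocols. Cela1 alone gave 18.3 RPKM of the 18.8 and 293 RPKM of the 300.4. In such whole tissue, fewer cells of a type and less RNA per cell cannot be told apart.

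Of the genes of apical uptake and export, Cybrd1, Slc11a2 and Heph had higher levels in small intestine by both protocols, whereas Slc40a1 had the higher level in colon by both. Genes were called where the RPKM in one tissue was at least 3 times the RPKM in the other plus 1. By cDNA fragmentation, 1 of the 7 genes was called higher in small intestine (Heph; 2.73% of the 16475 genes present were) and 2 in colon (Slc40a1 and Ftl1; 3.22% were). The call of Ftl1 was lost with TMM scaling, and those of Ftl1 and Heph with start points in place of reads. By rRNA depletion none was called in either direction, where 3.71% and 6.61% of the 15078 genes present were called higher in small intestine and in colon. Over all 4 libraries with protocol as a block, limma placed 2 of the 7 genes past an adjusted p of 0.05, Heph in small intestine and Slc40a1 in colon. TMM scaling, used in that fit, moved log2 tissue ratios by 0.35 and 0.38 toward small intestine in the 2 protocols. In the fit 7.33% of the 14243 genes tested were higher in small intestine and 5.86% higher in colon. Of the 6 genes with at least 20 reads in each library, 3 had the higher level in small intestine in both protocols (Slc11a2, Heph and Tfrc). Of the 8243 such genes 22.7% did. For Tfrc the log2 ratio by rRNA depletion was only 0.05, with a counting interval on both sides of equality. In colon 2 of the 6 had the higher level in both protocols (Slc40a1 and Ftl1), where 44.3% of the 8243 did.

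**Figure D1:**
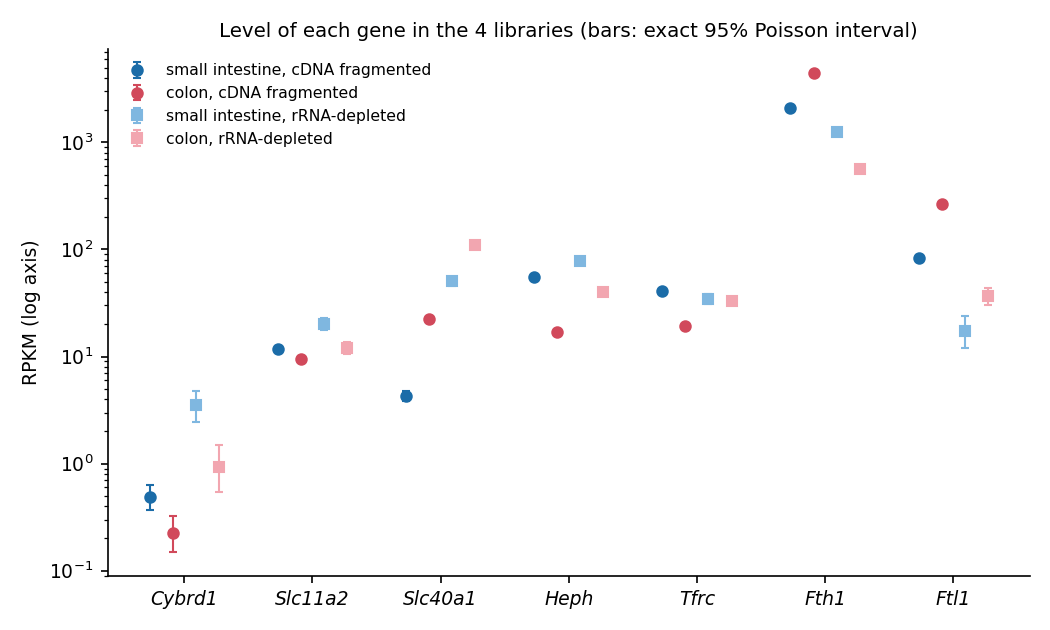
RPKM of the 7 genes on a log axis in the 4 libraries, with small intestine in blue and colon in red, cDNA fragmented libraries as circles and rRNA-depleted ones as squares, and exact 95% Poisson intervals as bars. Fth1 lies highest in every library, from 559 to 4399 RPKM, Cybrd1 lowest, from 0.225 to 3.49 RPKM, and Slc40a1 spans 4.32 to 110 RPKM.

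Cybrd1 (chr2:70956111-70980983, plus strand) encodes the duodenal cytochrome b reductase that reduces dietary ferric iron. It was the gene with the lowest level of the 7 in every library. Its level was 0.487 RPKM (95% interval 0.369 to 0.631, 57 reads) in small intestine and 0.225 RPKM (0.1504 to 0.322, 29 reads) in colon by cDNA fragmentation. In the rRNA-depleted libraries it was 3.49 RPKM (2.46 to 4.81, 37 reads) and 0.938 RPKM (0.547 to 1.503, 17 reads). Small intestine was higher in both protocols and the counting intervals did not overlap. Small intestine exceeded colon by 2.17 (95% interval 1.36 to 3.52) times by cDNA fragmentation and 3.72 (2.04 to 7.04) times by rRNA depletion. With protocol as a block the log2 difference was 1.81 ± 0.61 (SE), with an adjusted p of 0.0521 by limma. Of the reads, 88.2 to 97.3% lay in the last of its 4 exon blocks, which holds 4585 of its 5208 exonic bases. In the strand-specific libraries 6 of 37 and 1 of 17 reads lay antisense, against 0 to 2 reads for each of the other genes. Of its 35-base windows, 3.06% had another place in the exon reference.

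Slc11a2 (chr15:100218331-100253486, minus strand) encodes DMT1, the divalent metal transporter that brings ferrous iron across the apical membrane and out of endosomes. Its level was 11.9 RPKM (11.3 to 12.5, 1504 reads) in small intestine and 9.57 RPKM (9.07 to 10.1, 1338 reads) in colon by cDNA fragmentation. By rRNA depletion it was 20.3 RPKM (17.8 to 23.1, 233 reads) and 12.1 RPKM (10.6 to 13.7, 237 reads). Small intestine thus exceeded colon by a small ratio, 1.24 (1.15 to 1.34) and 1.68 (1.40 to 2.02). In the block fit the log2 difference was 0.87 ± 0.39 (SE), with an adjusted p of 0.164 by limma.

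The mRNA of Slc11a2 is known to end in alternative 3' exons, of which the distal one carries an IRE that departs from the motif searched here. Both ends were covered in each library. The distal last exon (chr15:100218331-100219592) had 15.6 and 14.4 RPKM in small intestine and colon by cDNA fragmentation, and 19.1 and 11.4 RPKM by rRNA depletion. The extension read only by the other form (chr15:100223089-100225700) had 4.75, 3.04, 19.9 and 9.58 RPKM in the same order. Per base, the distal exon was therefore covered 3.28 and 4.74 times as densely as the extension by cDNA fragmentation, and 0.957 and 1.19 times as densely by rRNA depletion. Of the reads on either end, the distal exon took 61.3% (Wilson 95% interval 57.7 to 64.8) in small intestine and 69.6% (66.0 to 73.0) in colon by cDNA fragmentation. The shares by rRNA depletion were 31.6% (24.8 to 39.3) and 36.5% (28.9 to 44.8). The intervals of the tissues overlapped by rRNA depletion and not by cDNA fragmentation, and those of the protocols lay apart in both tissues. Apart from junction reads, the only first exon in the exon table had 0 reads in 3 libraries and 3 reads in the cDNA fragmented library of colon. It had 1 junction read in the rRNA-depleted library of colon, so the use of first exons could not be followed.

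**Figure D2:**
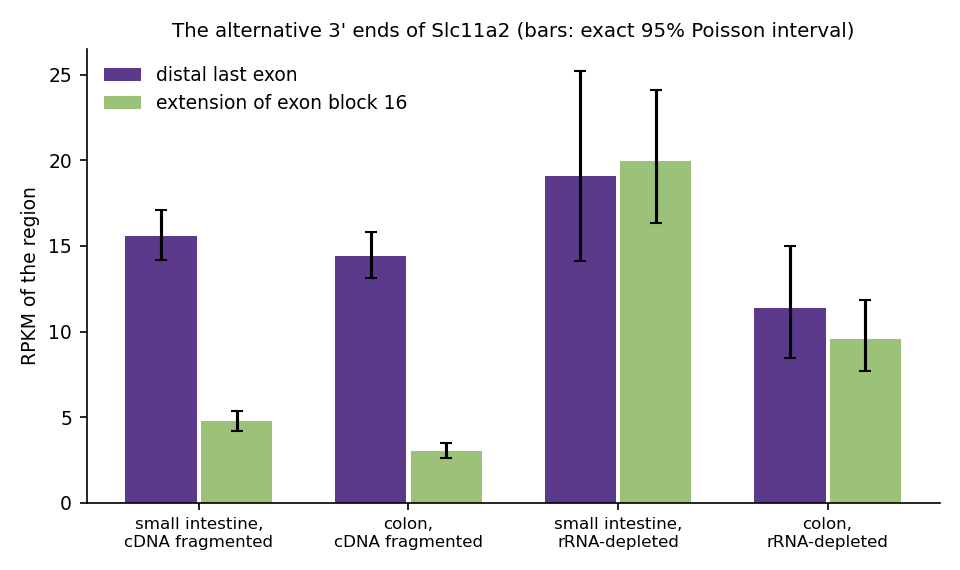
RPKM of the distal last exon of Slc11a2 and of the extension of exon block 16 in the 4 libraries, with exact 95% Poisson intervals. The distal exon stands above the extension in both cDNA fragmented libraries (15.6 against 4.75 and 14.4 against 3.04 RPKM), and the intervals overlap in both rRNA-depleted ones.

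Slc40a1 (chr1:45964915-45982439, minus strand) encodes ferroportin, the exporter through which iron leaves enterocytes and macrophages. Its level was 4.32 RPKM (3.86 to 4.81, 328 reads) in small intestine and 22.4 RPKM (21.4 to 23.4, 1877 reads) in colon by cDNA fragmentation. By rRNA depletion it was 50.3 RPKM (45.1 to 55.9, 346 reads) and 110 RPKM (104.6 to 117, 1299 reads). Colon was the higher tissue in both protocols, by a ratio of 5.19 (4.61 to 5.85) and 2.20 (1.95 to 2.48). With protocol as a block the log2 difference of small intestine minus colon was -1.40 ± 0.41 (SE), with an adjusted p of 0.0230 by limma. The difference was -0.75 without either or both of the cDNA fragmented libraries and -2.03 without either or both of the rRNA-depleted ones, with no test. All 8 exon blocks had a ratio of small intestine to colon below 1 in both protocols. By rRNA depletion the counting intervals of blocks 2, 3 and 4 reached above 1, to 1.42, 1.29 and 1.15. In the last and longest block the ratio was 0.199 by cDNA fragmentation, from 188 and 1043 reads. By rRNA depletion it was 0.467 in that block, from 154 and 563 reads.

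Macrophages also express ferroportin. Of the 8 macrophage markers, 7 had the higher level in small intestine by cDNA fragmentation (summed level 83.6 against 64.4 RPKM) and 1 by rRNA depletion (59.1 against 103 RPKM), where the markers thus lay mostly on the side of Slc40a1. None was at 0 and none was called by the 3-fold rule. Smooth muscle markers were higher in colon in both protocols, as was Slc40a1, with summed levels of 309 and 1290 RPKM by cDNA fragmentation and 251 and 2471 RPKM by rRNA depletion. Their part in the difference was not tested.

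Heph (chrX:93650775-93769821, plus strand) encodes hephaestin, the membrane ferroxidase that oxidises the iron exported by ferroportin. Its level was 54.9 RPKM (53.7 to 56.2, 7325 reads) in small intestine and 17.1 RPKM (16.4 to 17.7, 2509 reads) in colon by cDNA fragmentation. By rRNA depletion it was 78.7 RPKM (73.8 to 83.9, 950 reads) and 40.0 RPKM (37.4 to 42.9, 826 reads). Small intestine was higher by 3.22 (3.08 to 3.37) and 1.97 (1.79 to 2.16) times. The log2 difference of the block fit was 1.70 ± 0.38 (SE), with an adjusted p of 0.00327 by limma. The exporter and the ferroxidase that works with it therefore had opposite tissue differences in each protocol.

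The exon table of Heph holds an alternative last block inside the gene (chrX:93725633-93726762) and the final block (chrX:93768907-93769821). The final block had 98.4 and 29.6 RPKM in small intestine and colon by cDNA fragmentation, and 106 and 54.7 RPKM by rRNA depletion. The alternative block had 9.76, 3.53, 13.0 and 2.80 RPKM. The final block was thus covered 8.11 to 19.5 times as densely in the 4 libraries, and took 86.8 to 94.1% of the reads on either end.

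**Figure D3:**
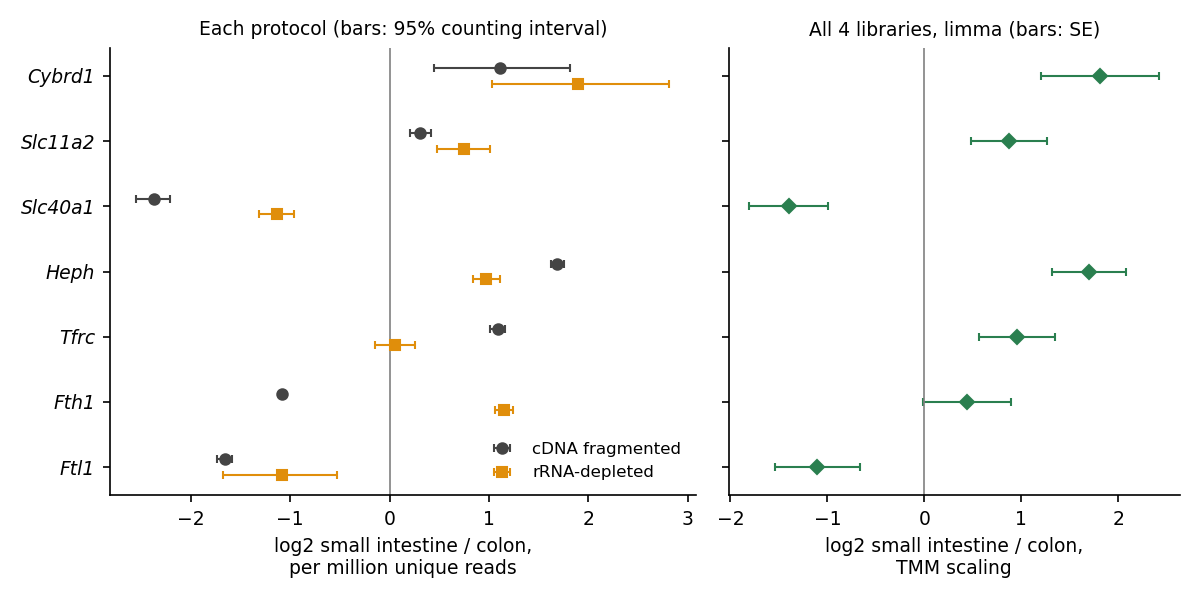
Log2 ratio of small intestine to colon for the 7 genes, on the left for each protocol per 1000000 uniquely placed reads with 95% counting intervals, and on the right from limma over all 4 libraries with TMM scaling and the SE. Heph and Cybrd1 lie right of 0 and Slc40a1 and Ftl1 left of it in both protocols, while Fth1 lies at -1.08 by cDNA fragmentation and at 1.15 by rRNA depletion.

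Tfrc (chr16:32609107-32632876, plus strand) encodes the receptor that takes up transferrin-bound iron from plasma, and is known to be high in dividing cells. Its level was 41.3 RPKM (40.0 to 42.5, 4438 reads) in small intestine and 19.4 RPKM (18.6 to 20.2, 2302 reads) in colon by cDNA fragmentation. By rRNA depletion it was 34.6 RPKM (31.0 to 38.5, 337 reads) and 33.3 RPKM (30.6 to 36.2, 555 reads). Small intestine to colon gave a ratio of 2.13 (2.02 to 2.24) in the first pair and 1.04 (0.904 to 1.19) in the second, where the intervals of the levels overlapped. In the block fit the log2 difference was 0.96 ± 0.39 (SE), with an adjusted p of 0.123 by limma. The 7 markers of proliferating cells summed to 215 and 191 RPKM by cDNA fragmentation and to 163 and 139 RPKM by rRNA depletion, in small intestine and colon. Of the 7, 4 had the higher level in small intestine by cDNA fragmentation and 3 by rRNA depletion, with median log2 ratios of small intestine to colon of 0.20 and -0.13. None was called by the 3-fold rule. Of the 7, limma called 1, Top2a, higher in small intestine (log2 difference 1.66 ± 0.39 SE, adjusted p = 0.00552), where 7.33% of all genes tested were. Their part in the level of Tfrc was not tested.

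The last exon block of Tfrc, 2697 bases long, holds the 4 IREs shown above. It took 73.9 and 83.0% of the exon reads of the gene in small intestine and colon by cDNA fragmentation, and 64.8 and 51.6% by rRNA depletion. Reads that held a whole IRE were few. A read of 35 bases can hold the 27 bases printed from few start positions only, so a count of 0 does not show absence. The second IRE in gene order was held by 14 and 4 reads in small intestine and colon by cDNA fragmentation and the third by 18 and 8 reads, while the first and the last were held by 0. No read of the rRNA-depleted libraries held any of the 4. The block itself had 53.6 and 28.5 RPKM by cDNA fragmentation and 39.5 and 30.2 RPKM by rRNA depletion, a ratio of small intestine to colon of 1.88 (1.78 to 1.99) and 1.31 (1.09 to 1.57). The 18 blocks before it gave a ratio of 3.24 (2.89 to 3.65) by cDNA fragmentation, from 1150 and 391 reads, and of 0.761 (0.607 to 0.949) by rRNA depletion, from 118 and 265 reads. By rRNA depletion 5 of these blocks were denser in small intestine, 10 in colon, and 3 had no read apart from junction reads.

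Fth1 (chr19:10057193-10059582, plus strand) encodes the heavy chain of ferritin, the subunit with ferroxidase activity. It was the most abundant of the 7 mRNAs in all 4 libraries and ranked from 15 to 94 among all genes present. Its level was 2077 RPKM (2057 to 2097, 40439 reads) in small intestine and 4399 RPKM (4371 to 4427, 94466 reads) in colon by cDNA fragmentation. By rRNA depletion it was 1241 RPKM (1189 to 1294, 2187 reads) and 559 RPKM (533 to 586, 1684 reads). Colon was thus higher by 2.12 (2.09 to 2.14) times in one protocol, and small intestine by 2.22 (2.08 to 2.37) times in the other. Start points could not measure the difference of the cDNA fragmented pair, since they filled 1402 and 1430 of 1732 possible positions (80.9 and 82.6%). By the ratio over all reads of a gene, Fth1 was the only one of the 7 to change direction between protocols. The direction of Tfrc was not settled by rRNA depletion, where its log2 ratio was only 0.05. Its 18 blocks before the last gave a ratio of small intestine to colon of 3.24 by cDNA fragmentation and 0.761 by rRNA depletion. Of 8243 genes with at least 20 reads in each library, 56 (0.679%) differed at least 2-fold in both protocols in opposite directions, and 49 (0.594%) did so with colon higher by cDNA fragmentation. The log2 difference of the block fit was 0.44 ± 0.45 (SE), with an adjusted p of 0.604 by limma. The pancreatic markers were higher in the same tissue as Fth1 in each protocol. Their part in the difference was not tested.

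The opposite directions of Fth1 held in each of its 4 exon blocks. By cDNA fragmentation the ratio of colon to small intestine was 3.14 in the first block, which holds the IRE, and 1.83, 2.03 and 1.94 in the blocks after it. By rRNA depletion the ratio, here of small intestine over colon, was 4.02 (3.54 to 4.57) in the first block and 2.35, 1.72 and 1.52 in the others. The first block therefore had the largest tissue ratio in both protocols, in opposite directions. The IRE of Fth1 was held whole by 53 and 109 reads in small intestine and colon by cDNA fragmentation and by 0 and 1 read by rRNA depletion. The IREs of Slc40a1 and Ftl1 were held whole by 0 reads in each library, which does not show that this part of the mRNA was missing.

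**Figure D4:**
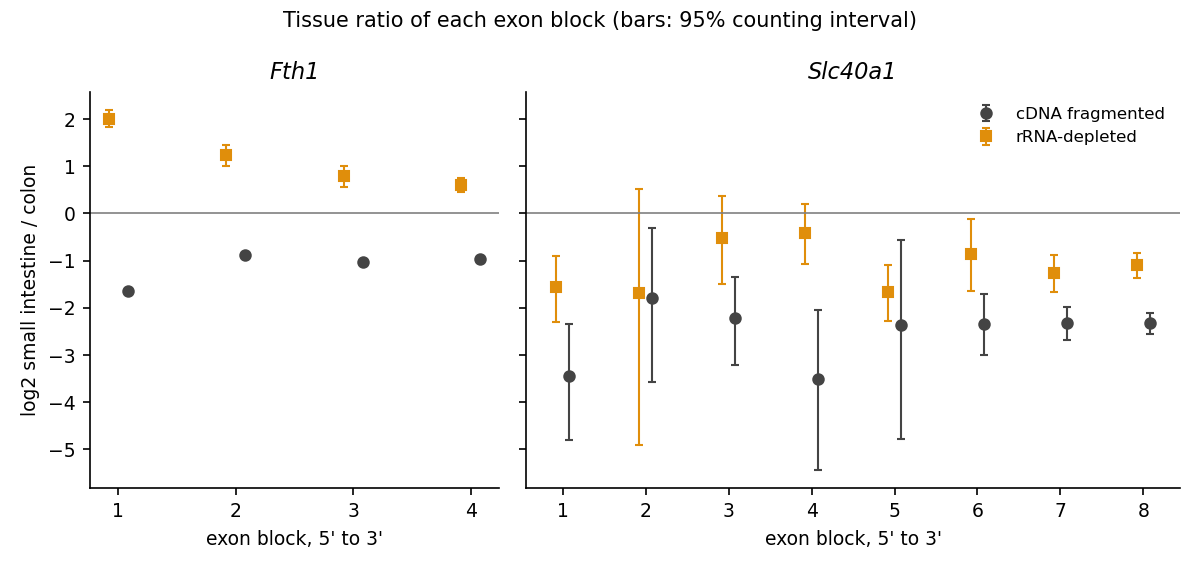
Log2 ratio of small intestine to colon in each exon block of Fth1 and Slc40a1, numbered from 5' to 3', by protocol, with 95% counting intervals. The 4 blocks of Fth1 lie below 0 by cDNA fragmentation and above 0 by rRNA depletion. The 8 blocks of Slc40a1 lie below 0 in both, with intervals of blocks 2, 3 and 4 that reach above 0 by rRNA depletion.

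Ftl1 (chr7:52713314-52715256, minus strand) encodes the light chain of ferritin, which favours formation of the iron core. Its level was 84.0 RPKM (80.2 to 88.0, 1833 reads) in small intestine and 265 RPKM (258 to 271, 6372 reads) in colon by cDNA fragmentation. By rRNA depletion it was 17.2 RPKM (11.9 to 24.1, 34 reads) and 36.5 RPKM (30.3 to 43.5, 123 reads). Colon was higher by 3.15 (2.99 to 3.32) and 2.12 (1.44 to 3.19) times. The log2 ratio of small intestine to colon by cDNA fragmentation, -1.66 by all reads, was -0.31 with at most 1 color mismatch and -0.10 by start points. With protocol as a block the log2 difference of small intestine minus colon was -1.10 ± 0.44 (SE), with an adjusted p of 0.105 by limma.

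The reads of Ftl1 are not a full measure of the gene. Of its 834 windows of 35 bases, 752 (90.2%) had another place in the exon reference, in each case in Ftl2. Ftl2 is a near-identical light chain sequence counted here as a gene, with 0 junction reads in each library. The authors kept only reads with a single place. Fth1, Slc40a1, Heph and Tfrc had 0% such windows, and a sample of all genes had 4.92%. No read of Ftl1 matched without a color mismatch in any library, and 83.8 to 97.1% of its exon reads carried the highest number allowed, 3 mismatches. Over all reads 15.4 to 19.4% did, and 12.8 to 35.3% for the other 6 genes. From which of the 2 the reads of Ftl1 and of Ftl2 came cannot be told apart. Ftl2 had 147 and 387 RPKM in small intestine and colon by cDNA fragmentation and 59.6 and 145 RPKM by rRNA depletion. Summed over Ftl1 and Ftl2, colon was higher by 2.83 (2.74 to 2.92) and 2.37 (1.98 to 2.85) times, so the direction was that of Ftl1 alone in both protocols. Ftl2 gave most of the summed reads in each library. The sum also lacks the reads that had another place, so it is no full measure either.

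**Figure D5:**
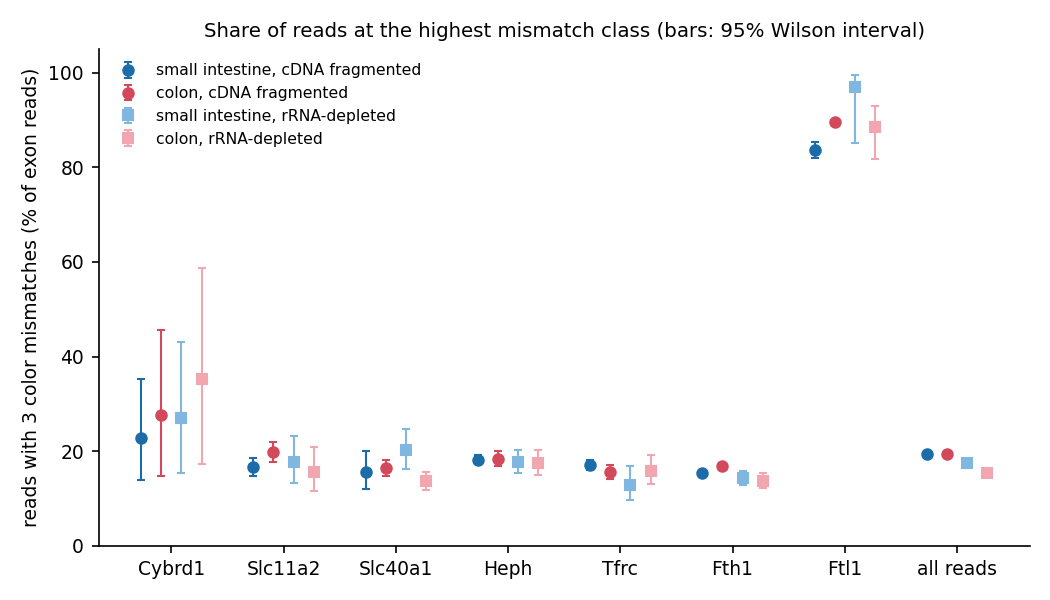
Share of exon reads that carried 3 color mismatches, in percent, for the 7 genes and for all reads in the 4 libraries, with Wilson 95% intervals for the genes. Ftl1 lies between 83.8 and 97.1%, and all reads between 15.4 and 19.4%.

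The order of the levels changed between libraries below Fth1. The place of Ftl1 is not comparable with those of the other genes, since 90.2% of its windows had another place in the exon reference. In the cDNA fragmented library of small intestine, RPKM fell in the order Fth1, Ftl1, Heph, Tfrc, Slc11a2, Slc40a1 and Cybrd1, and no neighbouring intervals overlapped. In the cDNA fragmented library of colon Slc40a1 followed Ftl1, ahead of Tfrc, Heph, Slc11a2 and Cybrd1. In the rRNA-depleted library of small intestine the order was Fth1, Heph, Slc40a1, Tfrc, Slc11a2, Ftl1 and Cybrd1, with overlapping intervals for Slc11a2 and Ftl1. In the rRNA-depleted library of colon Slc40a1 came second, and the intervals of Heph and Ftl1, and of Ftl1 and Tfrc, overlapped.

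The 2 libraries of small intestine differed more for some of these genes than the tissues did. Slc40a1 was 11.7 (9.99 to 13.6) times and Cybrd1 7.17 (4.61 to 11.04) times as high in the rRNA-depleted as in the cDNA fragmented library. With TMM scaling their log2 ratios of cDNA fragmented to rRNA-depleted went from -3.54 to -2.87 and from -2.84 to -2.17, and that of Slc40a1 was -2.33 by start points. Ftl1 was 4.88 (3.48 to 7.07) times and Fth1 1.67 (1.603 to 1.75) times as high in the cDNA fragmented one. Slc11a2 and Heph were higher in the rRNA-depleted library by 1.71 (1.48 to 1.97) and 1.43 (1.34 to 1.53) times (Heph turned with TMM scaling, to a log2 ratio of 0.15 in favour of cDNA fragmentation, and Slc11a2 over the last 1000 exonic bases, to 0.19). Tfrc was higher in the cDNA fragmented one by 1.19 (1.07 to 1.34) times, a log2 ratio of 0.25 that became 0.92 with TMM scaling and 1.07 over the last 1000 exonic bases. By the 3-fold rule 1 of the 7 genes was called higher in the cDNA fragmented library (Ftl1; 8.11% of the 15801 genes present were) and 1 in the rRNA-depleted library (Slc40a1; 11.6% were). Of the calls over all genes, 41.2% were in the cDNA fragmented library, and 68.1% with TMM scaling. The median log2 ratio of cDNA fragmented to rRNA-depleted over all genes was -0.35, with 10% of genes below -2.65, and the value of Slc40a1 was -3.54. In colon Slc40a1 was 4.93 (4.59 to 5.30) times and Cybrd1 4.18 (2.15 to 7.86) times as high in the rRNA-depleted library, and Fth1 7.87 (7.498 to 8.26) times and Ftl1 7.27 (6.08 to 8.76) times as high in the cDNA fragmented one. There the 3-fold rule called Fth1 and Ftl1 higher in the cDNA fragmented library (2 of 7; 7.74% of the 16343 genes present were) and Slc40a1 in the rRNA-depleted one (1 of 7; 12.3% were). By reads, the protocol difference of these 4 genes thus had the same direction in both tissues. Heph and Slc11a2 were higher in the rRNA-depleted library of colon too, by 2.35 (2.17 to 2.54) and 1.26 (1.10 to 1.45) times (Slc11a2 turned with TMM scaling, to a log2 ratio of 0.37), whereas Tfrc was higher there by 1.72 (1.56 to 1.89) times, against its direction in small intestine (with TMM scaling the log2 ratio in colon was -0.08).

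The regulators of iron balance, a list of 13 genes, held 10 or 11 present genes per tissue comparison. None was called by the 3-fold rule by cDNA fragmentation (2.73% of all genes were in small intestine and 3.22% in colon). By rRNA depletion 1 of 10 was called (3.71 and 6.61% of all genes were), in colon: Hfe, the haemochromatosis gene, named here after its value was seen, with 3.14 RPKM in small intestine from 11 reads and 20.5 RPKM in colon from 123. By cDNA fragmentation Hfe had 5.63 and 9.23 RPKM. Its log2 difference with protocol as a block was -0.96 ± 0.51 (SE), with an adjusted p of 0.256 by limma. The median log2 ratio of small intestine to colon over the list was 0.50 and -0.59 in the 2 protocols, against -0.36 and -0.42 over all genes. The 3 with the most reads were Aco1 and Ireb2, which encode the iron regulatory proteins that bind IREs, and Fbxl5, which encodes the ubiquitin ligase subunit that marks Ireb2 protein for decay. Aco1 had 60.7 and 25.1 RPKM in small intestine and colon by cDNA fragmentation and 54.5 and 38.4 RPKM by rRNA depletion. Ireb2 had 16.6, 7.96, 62.6 and 39.1 RPKM in the same order, and Fbxl5 46.1, 22.1, 62.6 and 50.0 RPKM. All 3 had higher levels in small intestine in both protocols, and limma with protocol as a block called Aco1 (log2 difference 1.26 ± 0.39 SE, adjusted p = 0.0309) and Ireb2 (1.24 ± 0.38 SE, adjusted p = 0.0302), 2 of the 8 listed genes it tested, where 7.33% of all genes were higher in small intestine. Fbxl5 had a log2 difference of 1.07 ± 0.38 (SE) and an adjusted p of 0.0720 by limma.

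The mRNA of hepcidin, the liver hormone that removes ferroportin from the membrane, was at the limit of detection. Hamp had 2 reads in the cDNA fragmented library of small intestine and 0 in the other 3, where a count of 0 allows up to 3 reads as a one-sided 95% limit. Hamp2, also in the list of regulators, had 3 and 2 reads in small intestine and colon by cDNA fragmentation, and 0 and 2 by rRNA depletion. Whether reads of these genes were lost for having another place was not examined.

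The list of other iron and haem handling genes held 35 genes, of which 33 were present by cDNA fragmentation and 31 by rRNA depletion. By the 3-fold rule 3 were called higher in small intestine and 1 in colon by cDNA fragmentation, and 4 and 3 by rRNA depletion, where the shares over all genes were 2.73 and 3.22%, and 3.71 and 6.61%. The median log2 ratio was -0.20 and -0.98 in the 2 protocols, against -0.36 and -0.42 over all genes. Of the genes called in the same direction in both protocols, Slc46a1 encodes a proton-coupled folate transporter that was also described as a haem carrier. It had 75.6 and 13.7 RPKM in small intestine and colon by cDNA fragmentation and 59.8 and 6.70 RPKM by rRNA depletion, with a log2 difference of 3.09 ± 0.43 (SE) and an adjusted p of 1.44e-05 by limma. Flvcr1, listed in the annotation as Mfsd7b and described as a haem exporter, had 9.25, 0.975, 16.3 and 2.39 RPKM in the same order, with a log2 difference of 3.41 ± 0.46 (SE) and an adjusted p of 9.64e-06 by limma. The 3 with the most reads were Alas1, the first enzyme of haem synthesis, Ncoa4, the receptor for ferritin turnover, and Ftl2. Ncoa4 had 94.0 and 58.6 RPKM by cDNA fragmentation and 160 and 99.3 RPKM by rRNA depletion, with an adjusted p of 0.0681 by limma. Alas1 had 110 and 161 RPKM, and 49.1 and 49.5 RPKM, with an adjusted p of 0.937 by limma. Over all 4 libraries limma called 5 of the 30 genes tested higher in small intestine and 1 in colon, against 7.33 and 5.86% of all genes.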

How the data were processed

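The deposited files hold matched reads, not counts: the authors had compared 35 colors per read with RefSeq exons of mm9 and exon-exon junctions with up to 3 mismatches, kept reads with 1 place, and listed position, strand and mismatches. Those values have no normalization. Columns left unused that belong to another sample numbered 0. Reads were counted per exon block, blocks joined by junctions were taken as a gene and named from GENCODE M1 (mm9), and each read was given to the block of its first base (tolerance 3 bases). Counts of reads and start points equalled the authors' reports. The study's methods describe polyadenylated RNA and more reads for RNA fragmentation than were deposited, and the labels' term is used here.

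Presence required more than 0.01 RPKM and 2 or more start points. Ratios carry exact conditional binomial intervals. Log2 ratios of lists had 0.1 RPKM added. The tissue difference with protocol as a block was fitted with limma 3.58.1 (voom, R 4.3.3, TMM, genes with 10 reads at the median library size in 2 libraries, Benjamini-Hochberg over all genes tested), with 1 residual degree of freedom. A count model had been planned. Such models were kept for tables deposited as counts, and these files hold read matches, so limma took its place on counts made here. Each gene's variance was moderated toward a value common to all genes tested, with 20.6 prior degrees of freedom. The p-values therefore measure mostly a spread between these libraries pooled over genes, which may be technical. The fit and the intervals were tried on simulated data. For the fit these held no protocol effect, so they could not test its behaviour where protocols differ.

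The 7 genes and the lists were chosen with earlier results of these data known. Of the lists, those genes are named that the 3-fold rule called in the same direction in both protocols, and the 3 with the most reads. Hfe, Hamp, Hamp2 and the markers Top2a, Cela1 and Krt20 are named outside this rule, with their values known. Symbols were matched to GENCODE M1 directly, and for 3 genes through older names in RefSeq. The 5 markers of red cell precursors found summed to 2.72 to 4.01 RPKM per library. The 8 epithelial markers summed to 9876 and 4703 RPKM in small intestine and colon by cDNA fragmentation. By rRNA depletion their sums were 3961 and 4054 RPKM. Krt20 alone gave 7588 and 2523 RPKM of the sums by cDNA fragmentation. Of the 8 markers, 4 had the higher level in small intestine by cDNA fragmentation and 5 by rRNA depletion.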

Additional observations from a re-analysis of the deposited data

Results flagged for a closer look

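The tissue difference of Fth1 went in opposite directions in the 2 protocols. The log2 ratio of small intestine to colon was -1.08 by cDNA fragmentation and 1.15 by rRNA depletion. With 1 library per tissue and protocol, the difference between the protocols was not tested.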

How the results depend on the processing

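No paired analysis was possible because each group holds 1 library, which leaves no replicate numbers to pair; the limma fit compares the tissues within each protocol. A comparison with DESeq2 had been planned and was not run, since count models were kept for tables deposited as counts. This was a choice, as counts made here from the read matches went into limma. Leaving out a library or a protocol leaves 1 library per tissue, which gives a value and no test.

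By cDNA fragmentation, Slc40a1 and Ftl1 were called in colon, and with median-of-ratios scaling, TMM scaling, start points or at most 1 color mismatch 1 gene, Slc40a1, was left. With start points Heph was not called in small intestine, giving 0. By rRNA depletion a penalty of 0.1 RPKM added 1 gene in small intestine (Cybrd1), and at most 1 color mismatch added 1 in colon (Ftl1). With start points no gene was called higher in the cDNA fragmented library of small intestine, giving 0. In the limma fit, start points gave 1322 genes higher in colon, against 835, and 708 higher in small intestine, against 1044, so that most calls lay in colon.

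Median-of-ratios and TMM scaling moved log2 tissue ratios by 0.33 to 0.38 toward small intestine and log2 ratios of protocols by 0.61 to 0.70 toward cDNA fragmentation. Of calls over all genes by cDNA fragmentation, 45.8% were in small intestine, and 58.4 to 58.9% after these scalings; by rRNA depletion it was 35.97%, and 55.8 to 57.5%. Of calls between protocols, the share in the cDNA fragmented library went from 41.2 to 66.3 and 68.1% in small intestine and from 38.7 to 66.5 and 69.5% in colon. No tissue direction of the 7 genes turned with them, but Heph became higher in the cDNA fragmented library of small intestine (log2 ratio 0.09 and 0.15).

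The limma difference of Fth1 turned to -0.73 without the rRNA-depleted libraries or either of them, and was 1.53 without the cDNA fragmented ones. Start points say nothing of Fth1 by cDNA fragmentation, where over 80% of its positions (exonic bases on 2 strands) were filled in both tissues. Of 203 recalculated values for single genes, 195 kept their sign, but this tally holds repeats and does not measure stability. The same value was entered for a protocol left out and for each of its libraries left out. Both genes called by limma kept an adjusted p under 0.05 with each alternative run over 4 libraries, including limma-trend, which was chosen after seeing the data.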
